A study of Mus musculus with 2 samples.

Results

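The metallothionein genes Mt1, Mt2 and Mt3 were examined by single-cell RNA sequencing (scRNA-seq) in mouse embryonic stem cells (ESCs) and in the epiblast-like cells (48h-EpiLCs) to which they had been differentiated for 48 h. They are 3 of the 32286 features of the count matrices and were found in both libraries by their symbols. They were selected because their variation from cell to cell and their joint detection had been seen in these data, so that their levels, spread and co-variation are given as a description, without a test. The study asked how Cnot8, the gene of a deadenylase subunit in Ccr4-Not, acts in the passage from naïve to formative pluripotency. There was 1 library per stage. Each held wild-type (WT) cells with the ROSAmT/mG reporter, which transcribe tdTomato, mixed with Cnot8 knockout (KO) cells in equal numbers, and the strain is given as ICR for both libraries.

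ESCs were kept in serum/LIF on feeder cells and 48h-EpiLCs in N2B27 with activin A, bFGF and KSR on Matrigel, so that stage, medium and library cannot be told apart. By the methods of the study, KO lines were made from blastocysts of heterozygous parents carrying a CRISPR/Cas9 mutation in Cnot8 exon 2 and were grown from picked colonies, so that KO and WT cells are different lines. Cells with at least 1000 genes and at most 10% mitochondrial unique molecular identifiers (UMIs) were kept, which were 11054 of 13184 barcodes in the ESC library and 9400 of 12427 in the 48h-EpiLC library. WT cells were those with at least 1 tdTomato UMI and no UMI of the Y-linked genes Ddx3y, Eif2s3y, Kdm5d and Uty, and KO cells were those without tdTomato and with at least 2 such UMIs. This gave 435 WT and 2978 KO ESCs, and 368 WT and 2977 KO 48h-EpiLCs, while 7641 and 6055 kept cells were in neither class. Median depth was 13151 and 13368 UMIs per cell in WT and KO ESCs, and 15598 and 17628 in WT and KO 48h-EpiLCs.

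The classes differ in Y-linked transcripts by the rule that set them, and the sex of each line is not given in the sources used here, so that a difference between the classes cannot be ascribed to Cnot8 alone. Cnot8 RNA was 43.1 CPM (UMIs scaled to a class total of 1000000) in WT and 72.1 CPM in KO ESCs, and 49.7 and 62.6 CPM in 48h-EpiLCs, so that it was not lower in the KO class. Of the cells with tdTomato, 15.9% in the ESC library and 18.6% in the 48h-EpiLC library also held a Y-linked UMI and were left out, and 41 barcodes were shared between the libraries. All 6 pluripotency markers were found in each class, at a summed level of 1869 to 2255 CPM. The 9 feeder fibroblast markers summed to 11.7 and 40.6 CPM in WT and KO ESCs and to 8.04 and 11.9 CPM in WT and KO 48h-EpiLCs, and Lum in both WT classes and Col3a1, Col6a3 and Postn in WT 48h-EpiLCs were at 0. The 8 primitive endoderm markers summed to 25.5, 45.6, 4.66 and 8.23 CPM in the same order, with Sox7 and Pdgfra at 0 in WT 48h-EpiLCs. The 7 measured markers of 2-cell-like cells summed to 9.10, 3.67, 1.77 and 3.96 CPM, with Zscan4f and Tcstv1 at 0 in WT ESCs and Tcstv3 and Usp17ld at 0 in WT 48h-EpiLCs. The 6 mesendoderm markers summed to 4.55, 6.80, 10.6 and 8.50 CPM, with T, Mixl1 and Mesp1 at 0 in WT ESCs and Foxa2 at 0 in WT 48h-EpiLCs. Their part in the results was not tested, other than by leaving out the marked cells. With 1 library per stage there is no replicate, no difference has a replicate check, and all intervals cover counting error only.

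Metallothioneins are small, cysteine-rich proteins that bind zinc and copper, and also cadmium, in metal-thiolate clusters. They buffer free metal ions and can scavenge oxidants. Mt1 and Mt2 are expressed in most tissues and are induced together by zinc through MTF1, a zinc finger transcription factor that binds metal response elements (MREs) in their promoters, and also by glucocorticoids and oxidative stress. Mt3 is known mainly from brain, where it was described as a growth inhibitory factor, and responds poorly to metals. Mt4, the remaining gene of the mouse cluster, is known from stratified epithelia.

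The genes lie in tandem on the plus strand of chromosome 8 (GRCm38, GENCODE M21), each with 3 exons. Mt4 (ENSMUSG00000031757) is at chr8:94137197-94139031, Mt3 (ENSMUSG00000031760) at chr8:94152607-94154146, Mt2 (ENSMUSG00000031762) at chr8:94172664-94173568 and Mt1 (ENSMUSG00000031765) at chr8:94179082-94180327. Mt2 and Mt1 are 5513 bases apart, and 18517 bases separate Mt3 from Mt2. The last 200 bases of the transcripts, from which the 3′ tag libraries mostly read, share no run longer than 12 bases between Mt1 and Mt2, 10 between Mt1 and Mt3 or 11 between Mt2 and Mt3. The antisense gene Gm45774 overlaps Mt2 by 749 bases, and whether reads were counted by strand is not given in the sources used here. Its own level was at most 3.56 CPM in any class.

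The promoter sequences are shown because MREs are the known elements of metal response in these genes, and whether they bear on the levels below was not tested. Each is the RefSeq window (GRCm38.p6, plus strand) from 250 bases before to 50 bases after the RefSeq start, with matches to the MRE letters TGCACNC or TGCGCNC, searched on both strands, in capitals.
Mt1 promoter, chr8:94178839-94179138: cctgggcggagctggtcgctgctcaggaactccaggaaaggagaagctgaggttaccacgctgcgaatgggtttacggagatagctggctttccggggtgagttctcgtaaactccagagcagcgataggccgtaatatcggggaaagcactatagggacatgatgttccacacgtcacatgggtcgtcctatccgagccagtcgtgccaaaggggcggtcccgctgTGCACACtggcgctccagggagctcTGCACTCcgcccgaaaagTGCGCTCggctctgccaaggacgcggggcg
Mt2 promoter, chr8:94172368-94172667: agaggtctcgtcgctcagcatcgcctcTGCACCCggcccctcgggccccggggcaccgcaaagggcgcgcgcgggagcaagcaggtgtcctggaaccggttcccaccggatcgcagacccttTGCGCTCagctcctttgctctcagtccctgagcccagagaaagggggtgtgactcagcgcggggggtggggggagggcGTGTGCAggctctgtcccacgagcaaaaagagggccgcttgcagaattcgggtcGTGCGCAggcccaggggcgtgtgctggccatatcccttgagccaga
Mt3 promoter, chr8:94152357-94152656: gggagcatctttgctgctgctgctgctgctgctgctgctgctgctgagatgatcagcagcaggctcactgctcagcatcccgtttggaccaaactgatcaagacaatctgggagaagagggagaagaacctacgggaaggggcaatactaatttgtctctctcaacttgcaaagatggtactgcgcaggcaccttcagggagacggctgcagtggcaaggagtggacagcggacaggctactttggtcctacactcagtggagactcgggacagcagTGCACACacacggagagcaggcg
Mt1 held 3 matches, all on the plus strand, whose first bases are at positions -23, 3 and 21, counted from the RefSeq start as 1. Mt2 held 4 matches, those at -223 and -128 on the plus strand and those at -50 and 5 on the minus strand. Mt3 held 1 match, at 28. At least 1 match was present in 25.7% of the 32851 RefSeq promoter windows of this length, at least 3 in 1.97% and at least 4 in 0.517%. The antioxidant response element letters TGACNNNGC had 1 match in the Mt2 window, at -79 on the plus strand. The Mt1 and Mt3 windows had none, and 12.4% of all windows had at least 1 match. Bases outside the windows were not searched, so that a window without a match does not show that the gene lacks the element. A match is a description of letters and not of binding.

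Mt1 and Mt2 were among the most abundant transcripts of these cells, and Mt3 was sparse. Mt1 amounted to 1934 CPM (95% exact Poisson interval 1899 to 1969) in WT ESCs, 1852 CPM (1839 to 1865) in KO ESCs, 1128 CPM (1102 to 1155) in WT 48h-EpiLCs and 2102 CPM (2091 to 2114) in KO 48h-EpiLCs. WT 48h-EpiLCs thus stood apart at the low end, and the intervals of the other classes did not overlap one another either. Among all features Mt1 ranked between 85 and 138 by UMIs in the 4 classes.

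Mt2 was likewise lowest in WT 48h-EpiLCs. It amounted to 910 CPM (887 to 935) in WT ESCs, 1046 CPM (1036 to 1055) in KO ESCs, 428 CPM (412 to 444) in WT 48h-EpiLCs and 1008 CPM (999.9 to 1016) in KO 48h-EpiLCs. KO ESCs and KO 48h-EpiLCs lay close together at the top. Each captured molecule counts as 1 UMI in this assay whatever its length, and the share of molecules captured was not measured for either gene. The first annotated transcripts of Mt1 and Mt2 are of similar length, 549 and 511 bases. Mt1 gave 2.12 UMIs per Mt2 UMI in WT ESCs, 1.77 in KO ESCs, 2.64 in WT 48h-EpiLCs and 2.09 in KO 48h-EpiLCs.

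Mt3 had another order of classes, highest in WT 48h-EpiLCs and lowest in KO ESCs. It amounted to 11.0 CPM (8.58 to 14.0) in WT ESCs, 4.31 CPM (3.72 to 4.97) in KO ESCs, 44.5 CPM (39.4 to 50.1) in WT 48h-EpiLCs and 19.3 CPM (18.2 to 20.4) in KO 48h-EpiLCs. These intervals did not overlap, and the class with the lowest Mt1 and Mt2 had the highest Mt3. Together the 3 genes took 0.286% of UMIs in WT ESCs, 0.290% in KO ESCs, 0.160% in WT 48h-EpiLCs and 0.313% in KO 48h-EpiLCs. Mt4 was at 3.57 and 2.90 CPM in WT and KO ESCs and at 0.482 and 0.759 CPM in WT and KO 48h-EpiLCs.

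**Figure D1:**
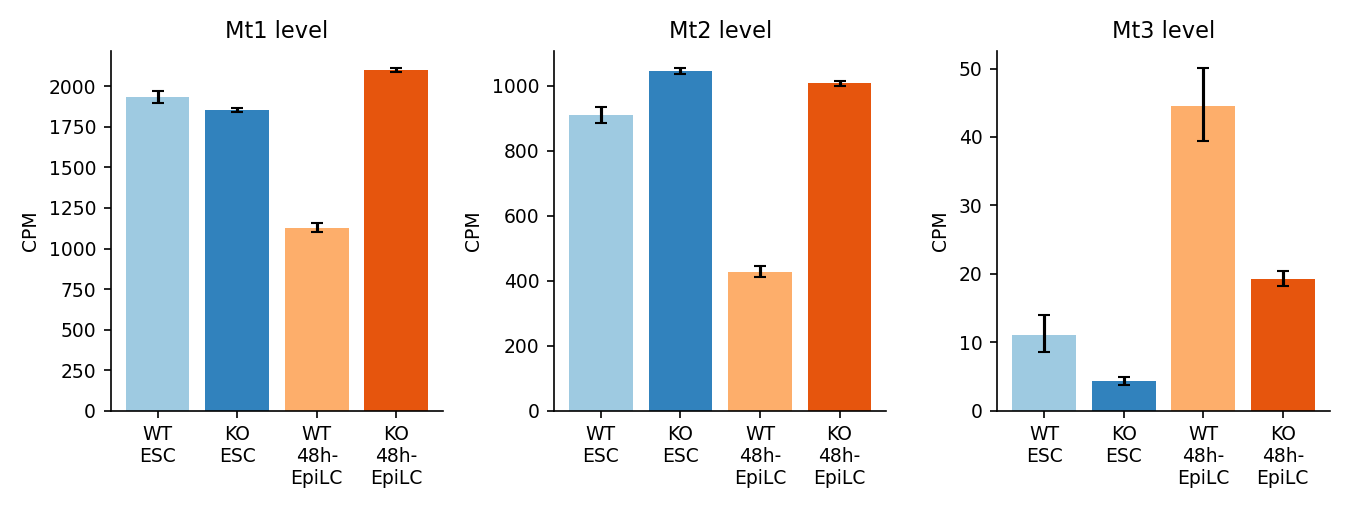
Levels of Mt1, Mt2 and Mt3 in CPM (y axis from 0, separate scale per gene) in WT and KO ESCs and 48h-EpiLCs. Bars are summed UMIs of the class and error bars are 95% exact Poisson intervals. Mt1 and Mt2 are lowest in WT 48h-EpiLCs, at 1128 and 428 CPM, where Mt3 is highest, at 44.5 CPM.

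Nearly every cell held Mt1 and Mt2. At least 1 Mt1 UMI was found in 99.5% of WT ESCs, 99.8% of KO ESCs and all cells of both 48h-EpiLC classes, and at least 1 Mt2 UMI in 99.8%, 99.4%, 97.6% and 99.8% of the cells in the same order. No cell type known to lack Mt1 and Mt2 was present in the libraries, and barcodes under 1000 genes, which hold more free RNA, had 1377 and 1270 CPM of Mt1 in the ESC and 48h-EpiLC libraries. The share of these UMIs that came from free RNA was not measured.

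Mt3 was found in 13.3% of WT ESCs (10.3% to 16.9%, exact binomial interval), 5.78% of KO ESCs (4.96% to 6.67%), 45.1% of WT 48h-EpiLCs (39.9% to 50.4%) and 27.0% of KO 48h-EpiLCs (25.4% to 28.6%). To compare shares at 1 depth, each cell was thinned to 5000 UMIs and shallower cells were left out, which were 1 WT and 23 KO ESCs and 1 WT and 9 KO 48h-EpiLCs. Thinned shares were 4.38%, 1.90%, 20.2% and 8.52%, in the same order of classes. No cell type known to lack Mt3 was present either. For comparison, cells of the ESC library with at least 5 UMIs of primitive endoderm markers held Mt3 in 3.21% (8 of 249 cells, 1.40% to 6.23%) at a median of 12053 UMIs. Cells of that library with at least 5 UMIs of feeder markers held it in 9% (18 of 200 cells, 5.42% to 13.9%) at a median of 14708 UMIs. The interval of the KO ESC share overlapped both of these, while that of the WT ESC share overlapped the second and lay above the first. Overlap does not show that shares are alike. Some of the marked cells are also in the ESC classes, and they are not known to lack Mt3, so that they give no background level. The 48h-EpiLC library held 6 and 3 such cells, too few for the comparison.

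In ESCs the lines differed little in Mt1 and Mt2 and more in Mt3. The KO over WT log2 ratio was -0.06 for Mt1 (-0.09 to -0.03, exact conditional binomial interval) and 0.20 for Mt2 (0.16 to 0.24), beside a median of 0.12 over 9277 genes with a mean of at least 5 CPM. For Mt3 it was -1.36 (-1.77 to -0.94), a level 0.390 times that of WT. A gene was counted as past 2-fold on the log2 ratio of CPM + 1. In this comparison 3.59% of genes (333) were at least 2-fold higher and 1.46% (135) at least 2-fold lower in KO cells, and of the members only Mt3 was past 2-fold, which reached the minimum mean through the WT class. Scaling by the trimmed mean of M values (TMM) shifted all ratios of this comparison by -0.11, which left Mt1 at -0.18, Mt2 at 0.09 and Mt3 below 0, and gave 242 genes higher and 171 lower.

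In 48h-EpiLCs the KO cells held more Mt1 and Mt2 and less Mt3 than the WT cells. Mt1 was 1.86-fold higher (1.82 to 1.91, log2 0.90) and Mt2 2.36-fold higher (2.27 to 2.45, log2 1.24) in KO cells, whereas Mt3 had a log2 ratio of -1.21 (-1.40 to -1.01). The median over 9385 genes was 0.07, with 2.31% of genes at least 2-fold higher and 0.938% at least 2-fold lower. Mt1 exceeded 97.0% of genes and Mt2 98.7%, and 0.586% of genes had a lower ratio than Mt3. Mt2 was past 2-fold and Mt1 was just short of it. Where WT cells were instead taken as those with no Y-linked UMI and at least 10000 UMIs, the ratios were 0.66 for Mt1 and 0.90 for Mt2, so that Mt2 was then also short of 2-fold.

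From ESCs to 48h-EpiLCs, Mt1 and Mt2 were lower in WT cells and nearly level in KO cells. In WT cells the 48h-EpiLC over ESC log2 ratio was -0.78 (-0.82 to -0.73) for Mt1 and -1.09 (-1.16 to -1.02) for Mt2. In KO cells it was 0.18 (0.17 to 0.20) for Mt1 and -0.05 (-0.07 to -0.04) for Mt2. The stage ratio was therefore larger in KO than in WT cells by 0.96 (0.92 to 1.00) for Mt1 and by 1.04 (0.97 to 1.11) for Mt2 on the log2 scale. Both comparisons use the same 4 sums, so that this is the same quantity as the change of the KO over WT ratio between stages.

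Mt3 was higher in 48h-EpiLCs than in ESCs by a similar factor in both lines, 4.03-fold (3.08 to 5.34) in WT and 4.47-fold (3.83 to 5.24) in KO cells. The difference of these log2 ratios, KO minus WT, was 0.15 (-0.29 to 0.59), and the interval leaves room for either sign. Over all genes, 4.76% were at least 2-fold higher and 4.65% at least 2-fold lower at the later stage in WT cells (9242 genes, median 0.03), and 2.52% and 4.03% in KO cells (9478 genes, median -0.02). Mt3 was past 2-fold in both lines, above 99.2% of genes in WT and 99.7% in KO cells, where it reached the minimum mean through 48h-EpiLCs, and Mt2 was past 2-fold, downward, in WT cells.

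**Figure D2:**
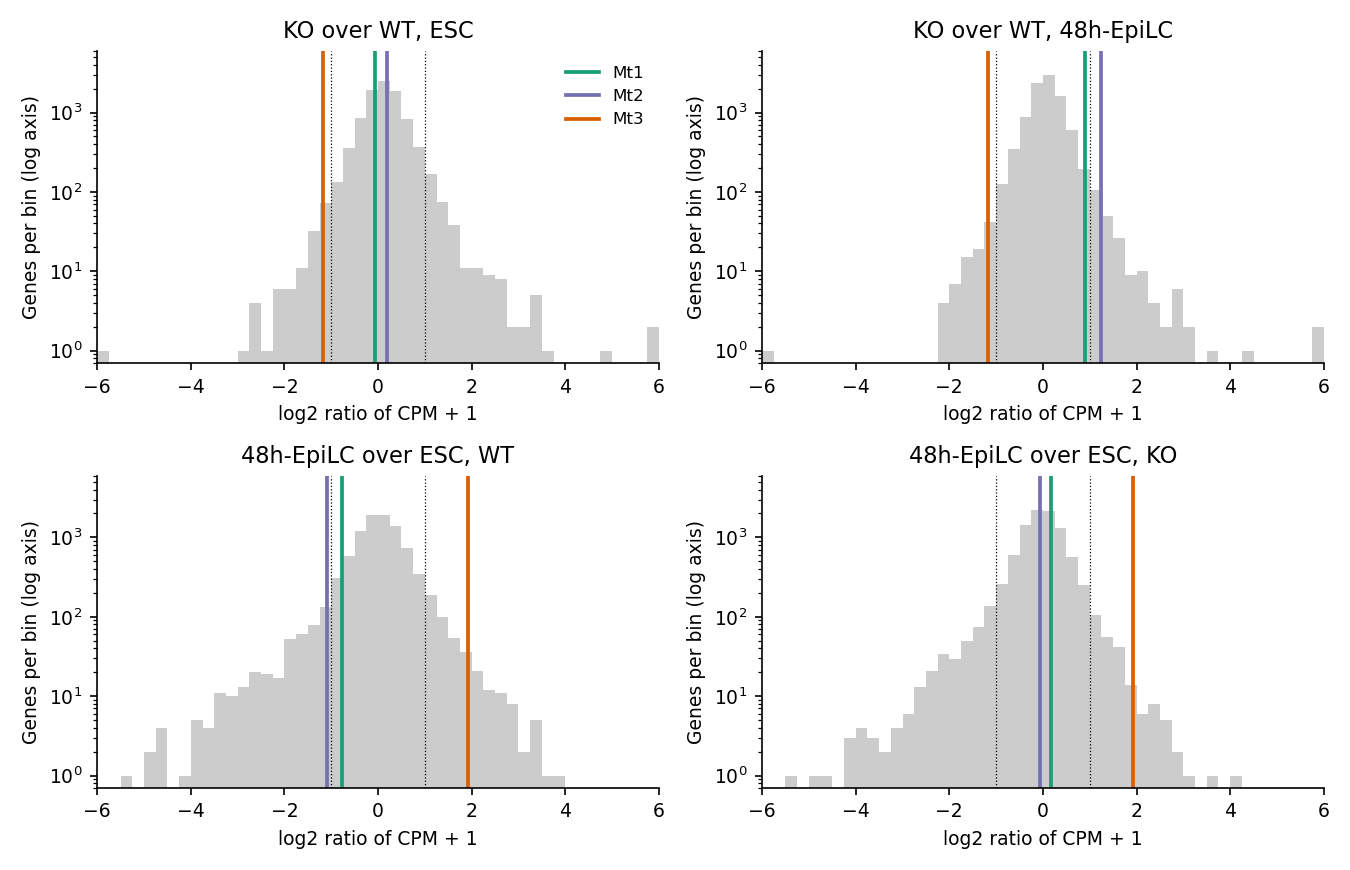
Log2 ratios of CPM + 1 (x axis) of all genes with a mean of at least 5 CPM as grey histograms (y axis, genes per bin of 0.25, log axis) in the 4 comparisons, with Mt1, Mt2 and Mt3 as coloured lines and the 2-fold limits dotted. Genes beyond the axis are drawn in the end bins. Mt1 and Mt2 stand together on the right of KO over WT in 48h-EpiLCs and on the left of the stage comparison in WT cells, and Mt3 stands on the opposite side.

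The class differences were visible across the bulk of the cells and not only in their tails. After thinning, the median cell held 9 Mt1 and 4 Mt2 UMIs in WT ESCs, 8 and 5 in KO ESCs, 5 and 2 in WT 48h-EpiLCs and 10 and 5 in KO 48h-EpiLCs. Of the WT 48h-EpiLCs, 14.4% reached the KO median of Mt1 and 11.7% that of Mt2. Over all pairs of 1 KO and 1 WT 48h-EpiLC, the KO cell held more Mt1 in 77.0% and more Mt2 in 77.8%. In ESCs the KO cell held more Mt1 in 43.4% of such pairs and the WT cell in 51.4%. For Mt2 these shares were 50.8% and 39.6%, and the remaining pairs were equal. Cells with fewer than 5 UMIs of Mt1 and Mt2 together made up 7.37% of WT ESCs, 8.32% of KO ESCs, 30.2% of WT 48h-EpiLCs and 2.32% of KO 48h-EpiLCs. The highest cell of each class held 47, 57, 35 and 65 of these UMIs in the same order.

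**Figure D3:**
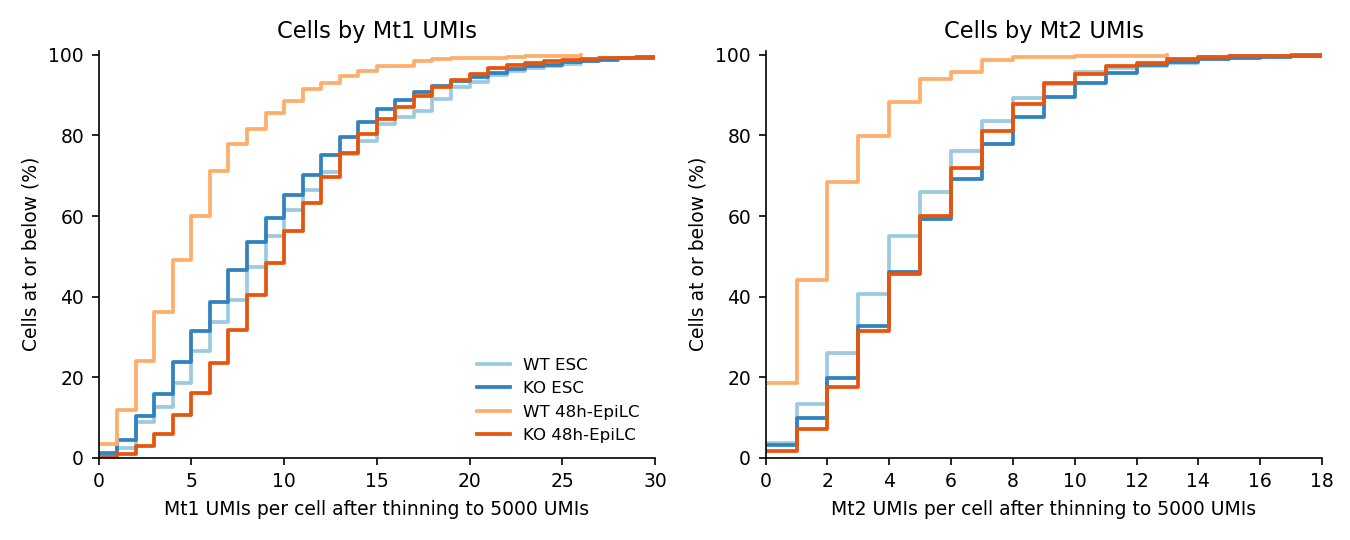
Cumulative share of cells (y axis, percent) by Mt1 UMIs (left) and Mt2 UMIs (right) per cell after thinning to 5000 UMIs, for the 4 classes. The line of WT 48h-EpiLCs lies left of the others over nearly its whole length, with medians of 5 and 2 UMIs, and both ESC classes and KO 48h-EpiLCs lie close together.

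Mt1 varied between cells more than nearly all genes. The Fano factor, the variance over the mean of the thinned UMIs, is 1 for pure counting noise. For Mt1 it was 3.78 in WT ESCs, 4.04 in KO ESCs, 3.10 in WT 48h-EpiLCs and 2.83 in KO 48h-EpiLCs, which ranked 10 of 7343, 29 of 7748, 17 of 7442 and 20 of 7653 genes with a mean of at least 0.05 UMIs. A Fano factor of at least 2 was reached by 0.654%, 1.16%, 0.537% and 0.666% of these genes. Because the Fano factor rises with the mean, each member was also set against the 100 genes nearest to it in mean, of which 100, 100, 98 and 99 had a lower factor than Mt1.

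Mt2 varied less, with Fano factors of 2.02, 1.99, 1.75 and 1.60 in the same order of classes, above those of 96, 96, 97 and 89 of its 100 neighbours in mean. After subtraction of the counting part, the coefficient of variation between cells was 52.9%, 57.6%, 61.9% and 41.8% for Mt1 and 46.8%, 43.3%, 59.3% and 34.1% for Mt2. On this scale Mt1 lay above Mt2 in each class, by least in WT 48h-EpiLCs, and both genes varied most in WT and least in KO 48h-EpiLCs. The 10% of cells with most Mt1 held 22.5%, 24.2%, 27.0% and 20.7% of all Mt1 UMIs. Mt3 lay near counting noise at this depth, with Fano factors of 0.974 (0.833 to 1.12, normal approximation over cells) in WT and 1.02 (0.971 to 1.07) in KO 48h-EpiLCs, and it fell below the minimum mean in both ESC classes. This depended on the thinning, since its factor in KO 48h-EpiLCs was 1.06 (1.01 to 1.12) at 3000 and 1.14 (1.08 to 1.19) at 8000 UMIs.

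**Figure D4:**
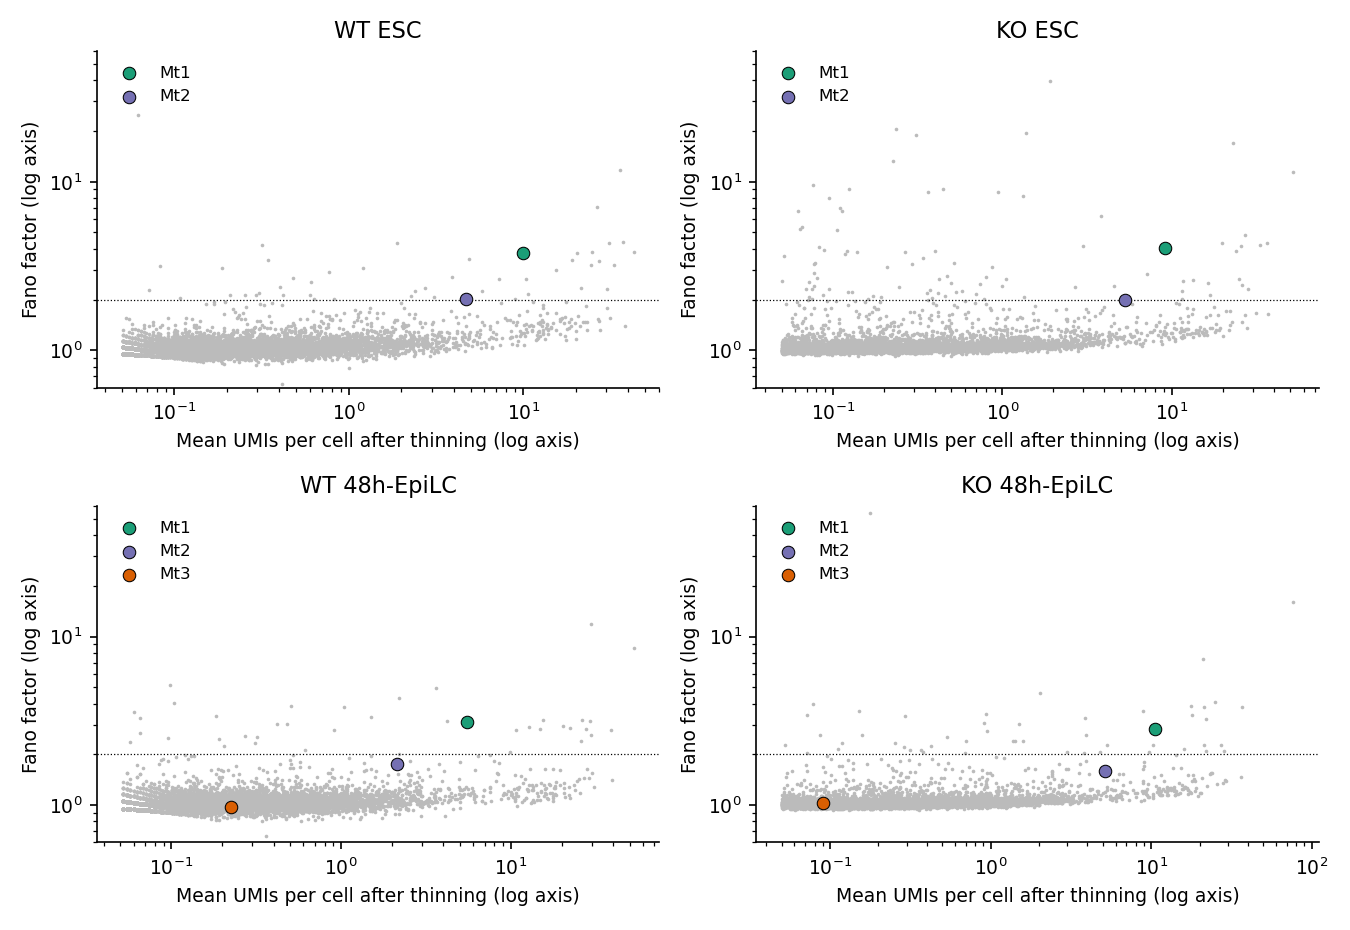
Fano factor (y axis, log) against mean UMIs per cell after thinning (x axis, log) for all genes with a mean of at least 0.05 UMIs (grey) in the 4 classes, with Mt1, Mt2 and Mt3 coloured and the line at 2 dotted. Mt1 lies above 2 in every class, from 2.83 to 4.04, Mt2 lies near the line, and Mt3, where drawn, lies near 1.

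Mt1 and Mt2 varied together. The Spearman coefficient of their thinned UMIs over cells was 0.53 in WT ESCs, 0.53 in KO ESCs, 0.34 in WT 48h-EpiLCs and 0.37 in KO 48h-EpiLCs, over 434, 2955, 367 and 2968 cells that share a library and a depth. Among 4526 genes detected in at least 10% of thinned cells of every class, Mt2 was the highest partner of Mt1, and Mt1 of Mt2, in each of the 4 classes. The next highest partner of Mt1 was Apoe at 0.20 in WT ESCs, Gclm at 0.15 in KO ESCs, Hsp90aa1 at 0.27 in WT 48h-EpiLCs and Hspb1 at 0.13 in KO 48h-EpiLCs. When the counting part was taken out of both variances, which assumes Poisson sampling, the Pearson coefficient rose from 0.59, 0.55, 0.47 and 0.40 to 0.97, 0.89, 0.86 and 0.82.

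Ordered by Mt1 and split into 4 groups of like size, the cells of the lowest group held on average 2.72 Mt2 UMIs in WT ESCs and those of the highest group 7.19. The same means were 3.22 and 7.69 in KO ESCs, 1.39 and 3.52 in WT 48h-EpiLCs and 3.88 and 6.71 in KO 48h-EpiLCs, and Mt2 rose through each of the 4 groups in every class. Median depth before thinning differed little between these groups, from 12657 to 14149 UMIs in KO ESCs and from 17323 to 18364 in KO 48h-EpiLCs. The 10% of cells highest in Mt1 and the 10% highest in Mt2 shared 22 of 43 cells in WT ESCs, 111 of 296 in KO ESCs, 16 of 37 in WT 48h-EpiLCs and 90 of 297 in KO 48h-EpiLCs. Simple detection carried little of this relation, because both genes were found together in 95.9%, 96.1%, 79.6% and 98.0% of thinned cells, which is 1.00 to 1.01 times the product of the single shares.

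**Figure D5:**
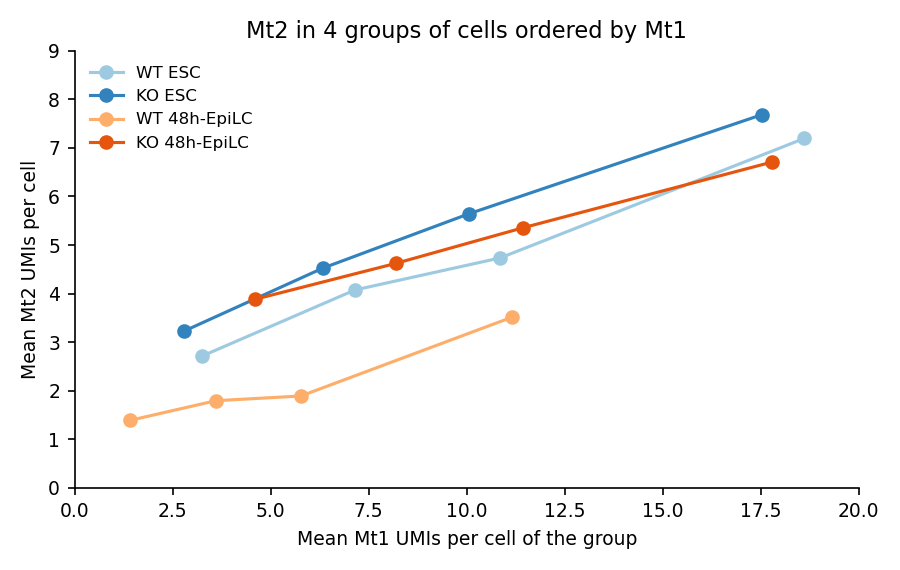
Mean Mt2 UMIs per cell (y axis) against mean Mt1 UMIs per cell (x axis) in 4 groups of like size of cells ordered by Mt1, after thinning to 5000 UMIs, with 1 line per class. Mt2 rises with Mt1 in all 4 classes, from 2.72 to 7.19 in WT ESCs and from 1.39 to 3.52 in WT 48h-EpiLCs, whose line lies lowest.

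Mt3 was related to Mt1 and Mt2 far more weakly than they were to each other. Its Spearman coefficients with Mt1 were above 0 in all 4 classes, at 0.03 in WT ESCs, 0.04 in KO ESCs, 0.11 in WT 48h-EpiLCs and 0.02 in KO 48h-EpiLCs, and those with Mt2 ran from -0.03 to 0.06. From the lowest to the highest of the 4 groups by Mt1, Mt3 was found in 13.0%, 18.5%, 22.8% and 26.4% of WT 48h-EpiLCs, where the intervals of the lowest (6.93% to 21.7%) and the highest (17.7% to 36.7%) group overlap. In KO ESCs the 56 cells with Mt3 held on average 10.4 Mt1 and 6.43 Mt2 UMIs, against 9.15 and 5.25 in the cells without it. In WT 48h-EpiLCs, 74 of 367 thinned cells held Mt3, and they held on average 6.27 Mt1 and 2.20 Mt2 UMIs, against 5.27 and 2.13 in the cells without it. In KO 48h-EpiLCs the 253 cells with Mt3 held 11.1 Mt1 and 4.91 Mt2 UMIs, against 10.4 and 5.16.

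Other genes followed the sum of Mt1 and Mt2 only weakly. Among 4525 genes, the highest mean Spearman coefficients over the 4 classes were those of Ftl1 (0.15) and Fth1 (0.10), which encode the ferritin chains that store iron, Hsp90aa1 (0.14) and Hspb1 (0.10), which encode chaperones, and Apoe (0.13), which encodes a lipid carrier. They further included Gclm (0.12), a subunit of the enzyme that starts glutathione synthesis, the carbonyl reductase Cbr3 (0.12) and the glutathione peroxidase Gpx2 (0.11). The 5th and 95th percentiles over all genes were -0.04 and 0.04. Hspb1 was not positive in every class, at -0.03 in WT ESCs. Over all kept cells, the leading genes Ftl1 and Hsp90aa1 ranked only 313 and 191 of 4972 genes. The lowest were Taok1 (-0.10), Cfl2 (-0.08), Clic1 (-0.08) and Eef1a1 (-0.08). In counts this sparse such coefficients are descriptions of these cells and no more. Depth of the cell (-0.02 to 0.07) and mitochondrial percentage (-0.06 to 0.07) were related to the sum as weakly. For Mt3 the highest were Grwd1 and Ftl1 (0.06 each) and Abhd17a (0.06).

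Most measured genes that handle zinc were within 2-fold between the lines. Of 25 genes, the zinc transporters with Mtf1, 15 had a mean of at least 5 CPM in ESCs, of which 3 were at least 2-fold higher in KO cells and none lower, beside 3.59% of all genes higher. These were Slc30a1, an exporter at the plasma membrane and an MTF1 target, from 5.69 to 17.7 CPM (log2 ratio 1.64, 1.15 to 2.17), Slc30a2, a vesicular transporter, from 1.30 to 11.6 CPM (3.16, 2.17 to 4.38), and Slc39a3, an importer, from 2.76 to 8.09 CPM. Slc30a2 and Slc39a3 reached the minimum mean only through the KO class, where they were high, so that the count supports nothing about the list. In 48h-EpiLCs none of the 12 genes over the minimum was past 2-fold in either direction. Slc30a2 fell below that minimum there, at 1.29 CPM in WT and 3.74 CPM in KO cells (log2 ratio 1.54, 0.54 to 2.77), so that these counts do not show a difference between the stages. Between stages none of 12 passed in WT cells. In KO cells 2 of 15, Slc30a1 (-1.68) and Slc30a2 (-1.64), were lower in 48h-EpiLCs, beside 4.03% of all genes. Here too Slc30a2 reached the minimum mean only through KO ESCs, where it was high, so that this count supports nothing about the list.

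Mtf1 was at 16.1 CPM in WT ESCs, 24.5 in KO ESCs, 16.4 in WT 48h-EpiLCs and 23.0 in KO 48h-EpiLCs, with KO over WT log2 ratios of 0.61 and 0.49 at the earlier and later stage. The importer Slc39a10, which is known to be repressed by MTF1, was at 47.9, 49.1, 60.4 and 69.9 CPM in the same order. Over cells, the Spearman coefficients of Mtf1, Slc30a1 and Slc39a10 with the sum of Mt1 and Mt2 lay between -0.03 and 0.11. Of 9 measured copper-handling genes none was past 2-fold in any of the 4 comparisons.

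Among lists of other pathways that are known to act on metallothionein genes, most antioxidant genes of the NRF2 pathway were higher at the later stage. Of 11 measured, 7 were at least 2-fold higher in 48h-EpiLCs in WT cells, beside 4.76% of all genes, with a median log2 ratio of 1.06. In KO cells 5 were at least 2-fold higher, beside 2.52% of all genes, with a median of 0.92. In WT cells Gclm was at 1.38, the catalytic subunit Gclc at 1.36 and the sulfiredoxin gene Srxn1 at 1.34, while Hmox1, which degrades haem, was at -1.22. No member of this list was past 2-fold between the lines at either stage. Over cells, the summed list had Spearman coefficients with the sum of Mt1 and Mt2 of 0.10 in WT and 0.16 in KO ESCs. In WT and KO 48h-EpiLCs they were 0.11 and 0.14. Whether this pathway bears on the levels of Mt1 and Mt2 was not tested.

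Of the heat shock list, 1 of 10 measured genes was at least 2-fold higher in KO ESCs, Bag3 (log2 ratio 1.21), beside 3.59% of all genes. In KO 48h-EpiLCs 2 of 9 were, beside 2.31% of all genes, the small chaperone gene Hspb1 (1.20) and the co-chaperone gene Dnajb1 (1.10). Hspb1 was also the only gene of this list past 2-fold with stage, lower in WT 48h-EpiLCs (-1.53), beside 4.65% of all genes. Of 6 measured glucocorticoid response genes, 1, Dusp1, was at least 2-fold lower in KO 48h-EpiLCs (-1.18), beside 0.938% of all genes. With stage in WT cells 1, Sgk1, was lower (-1.46), beside 4.65% of all genes. Most genes of the hypoxia list, which holds targets of HIF1, were lower in KO cells, with a median of -0.58 in ESCs and of -0.90 in 48h-EpiLCs. In ESCs none of the 10 was past 2-fold, beside 3.59% of all genes higher and 1.46% lower. There 2 of them were above 0, Ndrg1 (0.29) and Vegfa (0.28). At the later stage 4 of 10 genes were at least 2-fold lower in KO cells, beside 0.938% of all genes. They were Adm (-1.96), Bnip3 (-1.29), Egln3 (-1.18) and Pgk1 (-1.08). Of 9 genes of LIF and STAT3 signalling, 7 were at least 2-fold lower in 48h-EpiLCs in WT and 6 in KO cells, with medians of -2.25 and -1.57. The shares over all genes were 4.65% and 4.03%. Lifr, Il6st, Socs3 and Tfcp2l1 in WT cells, and Il6st, Socs3 and Klf4 in KO cells, reached the minimum mean only through ESCs, where they were high. These counts therefore support nothing about the list. Pim1 went the other way, at 0.91 in WT and 0.70 in KO cells. Of 8 measured iron-handling genes, only Slc40a1, the iron exporter, was at least 2-fold higher with stage, beside 4.76% of all genes in WT and 2.52% in KO cells. It was at 3.38 in WT and 3.36 in KO cells and reached the minimum mean only through 48h-EpiLCs. Tfrc, the transferrin receptor, was lower with stage in both lines, at -0.96 (-1.07 to -0.84) in WT and -1.02 (-1.07 to -0.96) in KO cells. Only the KO value was past 2-fold, beside 4.03% of all genes, and the intervals overlapped.

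Of the neighbours of the cluster described here, none with a mean of at least 5 CPM was past 2-fold between the lines. They are Bbs2, Ogfod1 and Nudt21 on its left and Gm39228, Nup93, C78859 and Slc12a3 on its right. Nudt21, 100166 bases from the cluster, had KO over WT log2 ratios of 0.01 in ESCs and -0.0043 in 48h-EpiLCs, and Nup93, 34237 bases away, had 0.09 and -0.01. Ogfod1 was at 0.13 and -0.38. Bbs2, 38269 bases away, was at -0.01 and -0.17 between the lines but was lower in 48h-EpiLCs in both, at -1.94 in WT and -2.10 in KO cells. Gm39228, C78859 and Slc12a3 were at most 1.43 CPM in any class.

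Outside the classes, the kept cells with neither tdTomato nor a Y-linked UMI, which can be of either line, had 1950, 970 and 12.3 CPM of Mt1, Mt2 and Mt3 in ESCs (5321 cells) and 1375, 564 and 44.7 CPM in 48h-EpiLCs (4247 cells). Cells without tdTomato and with 1 Y-linked UMI had 1856, 1015 and 5.78 CPM in ESCs and 1910, 899 and 26.0 CPM in 48h-EpiLCs. In 48h-EpiLCs the Mt1 and Mt2 levels of both groups lay between those of the WT and KO classes, nearer to WT in the first group and nearer to KO in the second. In the ESC library, 200 cells with at least 5 UMIs of feeder markers had 1039 CPM of Mt1 and 468 CPM of Mt2, and 249 cells with at least 5 UMIs of primitive endoderm markers had 1185 and 664 CPM, all below the ESC classes. Such cells, or cells with 5 UMIs of 2-cell markers, made up 11 of the WT and 164 of the KO ESCs and 0 and 18 of the 48h-EpiLCs.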

How the data were processed

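The libraries were made with the droplet-based 3′ kit of 10x Genomics. The deposited values were counts of UMIs per gene and barcode. By the submitters' notes and the methods of the study, the authors obtained them from Cell Ranger 3.0.2 on mm10 with tdTomato added as a gene, and no normalisation is stated. The ESC library held 144584246 UMIs and the 48h-EpiLC library 163771168. The members and lists were chosen with earlier results of these data known.

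UMIs were summed per class and scaled to the class total (CPM), and the lines were inferred from tdTomato and Y-linked UMIs, as the labels propose for tdTomato. Cells are not replicates, so that no test was run. CPM carry exact Poisson, shares Clopper-Pearson and ratios exact conditional binomial intervals at 95%. Minimum means were taken over both classes compared, so that a gene low in 1 class could pass through the other. Cells were thinned without replacement to 5000 UMIs for spread, co-detection and likeness. No doublet caller was run. Cells with both line marks were left out, and cells over 2 times the class median of UMIs were left out as an alternative. Named genes were the members, their neighbours, line marks, genes highest or lowest in likeness and, of each list, up to 4 measured genes with the largest ratios beside Mtf1, Slc30a1 and Slc39a10. The result for 1 neighbour is not reported here. Next partners of a gene were named after they had been seen. The counting-corrected Pearson coefficient was added after seeing the data. Python 3.11.15, NumPy 2.4.6, SciPy 1.17.1, pandas 2.3.3 and, for TMM only, edgeR 4.0.16 in R 4.3.3 were used. The steps were tested on simulated data.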

Additional observations from a re-analysis of the deposited data

Results flagged for a closer look

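Mt1 was lower in 48h-EpiLCs than in ESCs in WT cells and nearly level in KO cells. From ESCs to 48h-EpiLCs its log2 ratio was -0.78 in WT cells and 0.18 in KO cells, and equivalently its KO over WT log2 ratio was -0.06 in ESCs and 0.90 in 48h-EpiLCs. The difference, KO minus WT, was 0.96 on the log2 scale with a counting interval of 0.92 to 1.00. It was not tested, because there was 1 library per stage. The KO class of ESCs held more cells with feeder or primitive endoderm markers than the other classes, and without all such cells the stage ratio of Mt1 in KO cells was 0.14. The classes differ in Y-linked transcripts by rule, and stage, medium and library cannot be told apart.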

How the results depend on the processing

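No paired analysis was possible because there was 1 library per stage. No ratio of Mt1, Mt2 or Mt3 and no coefficient of Mt1 with Mt2 changed sign under any alternative run. The KO over WT ratios in 48h-EpiLCs depended most on the choice of WT cells. With WT cells taken as those without Y-linked UMIs and with at least 10000 UMIs, the log2 ratios were 0.66 for Mt1 and 0.90 for Mt2 in 48h-EpiLCs and 0.12 for Mt2 in ESCs, and the WT stage ratios were -0.56 and -0.84. The WT 48h-EpiLC Fano factors were then 3.67 for Mt1 and 2.24 for Mt2 and the Spearman coefficient was 0.49. The cause was not tested.

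With KO cells taken from 1 Y-linked UMI, Mt1 was at 0.85 between the lines in 48h-EpiLCs, the KO stage ratios were 0.14 and -0.088, and the KO 48h-EpiLC Fano factors were 3.01 and 1.72. Without marker cells the KO stage ratios were 0.14 and -0.10, and without cells over 2 times the median UMIs that of Mt1 was 0.20. As means over cells they were 0.20 and -0.032. TMM gave -0.18 for Mt1 and 0.087 for Mt2 between the lines in ESCs, 0.85 for Mt1 between the lines in 48h-EpiLCs, -0.82 for Mt1 with stage in WT cells, and 0.23 and -0.0090 with stage in KO cells. On CPM + 1, Mt3 was at 1.93 with stage in KO cells.

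The Fano factor and the Spearman coefficient rise with depth by construction. Thinned to 3000 UMIs, the Fano factors of Mt1 were 2.84, 2.86, 2.18 and 2.03 and those of Mt2 1.65, 1.54, 1.27 and 1.33 in WT and KO ESCs and WT and KO 48h-EpiLCs. At 8000 UMIs they were 5.22, 5.61, 4.67 and 3.99 for Mt1 and 2.46, 2.52, 2.21 and 2.01 for Mt2. The coefficients were 0.40, 0.43 and 0.30 at 3000 UMIs in the classes other than WT 48h-EpiLCs, and 0.60, 0.62, 0.49 and 0.47 at 8000 UMIs. The counting-corrected coefficient lay between 0.80 and 0.97 under the alternatives.

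With a minimum mean of 1 CPM, 667 genes were at least 2-fold higher and 207 lower between the lines in ESCs, 422 and 160 in 48h-EpiLCs, and 848 and 705 with stage in WT and 393 and 647 in KO cells. Of the 8 genes most like Mt1 plus Mt2, 8 were among the 50 highest with Pearson coefficients and without marker cells, and 6 with all kept cells, where the 2 that led, Ftl1 and Hsp90aa1, fell to ranks 313 and 191. Of the 4 lowest, 4, 3 and 1 were among the 50 lowest with Pearson coefficients, without marker cells and with all kept cells. The Mt3 Fano factor in WT 48h-EpiLCs was 1.17 at 3000 UMIs and that in KO 48h-EpiLCs 1.14 at 8000 UMIs and 1.08 with KO cells from 1 Y-linked UMI, and with WT cells by the absence of Y-linked UMIs it was 1.21 in WT ESCs. Mt3 is limited by depth, with 68 UMIs in WT ESCs and 190 in KO ESCs.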

Other observations

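Lists of cell state and cycle gave these counts of genes past 2-fold. Of 12 measured naïve pluripotency genes, 10 were lower in 48h-EpiLCs in each line, beside 4.65% of all genes in WT and 4.03% in KO cells. Their median log2 ratios were -2.95 in WT and -2.37 in KO cells, and Dppa3 was higher in KO cells (1.91). Esrrb, Tfcp2l1, Tbx3 and Nr5a2 in WT cells, and Klf4, Tbx3 and Nr5a2 in KO cells, reached the minimum mean only through ESCs, where they were high. Klf4 and Tfcp2l1 are also members of the LIF and STAT3 list. Of 9 naïve genes measured between the lines in 48h-EpiLCs, 4 were higher in KO cells, beside 2.31% of all genes. Of these 4, Esrrb reached the minimum mean only through KO cells, at 3.54 CPM in WT and 11.3 CPM in KO cells. Nanog (-0.67), Klf4 (-0.79) and Fgf4 (-0.89) were below 0 in that comparison. In ESCs 1 naïve gene was lower in KO cells, Fgf4 (-1.14). Of 6 formative genes, 4 were higher with stage in WT and 3 in KO cells, beside 4.76% and 2.52% of all genes. Fgf5, counted in both lines, reached the minimum mean only through 48h-EpiLCs. None of 8 mitosis and 8 S phase genes was past 2-fold in any comparison, and all 16 had a KO over WT ratio above the median of all genes in 48h-EpiLCs. Of 9 amino acid stress genes, 1 was higher in KO ESCs, beside 3.59% of all genes. It was Chac1, which reached the minimum mean only through that class. In 48h-EpiLCs 1 was lower in KO cells, Ddit4, beside 0.938% of all genes, and of 8 p53 genes none passed between the lines.

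Within WT 48h-EpiLCs, the sum of Mt1 and Mt2 had Spearman coefficients over 367 cells of 0.28 with the summed heat shock list, 0.20 with the iron list, 0.20 with the naïve list and -0.19 with the formative list. In KO 48h-EpiLCs the same coefficients were 0.12, 0.13, 0.05 and -0.05 over 2968 cells. In WT ESCs they were 0.07, 0.17, 0.02 and -0.02, and in KO ESCs 0.05, 0.14, -0.08 and 0.09. Those of the naïve and formative lists thus had the opposite sign in KO ESCs. Other lists reached values of this size, among them p53 (-0.17) and primitive endoderm (-0.15) in WT ESCs. The iron list holds Ftl1 and Fth1 and the heat shock list Hsp90aa1 and Hspb1, which lead the single genes.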
